A study of Mus musculus with 20 samples.

Results

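The genes described here are 7 genes of Schwann cells and myelin, chosen by name from a list: Sox10, Mbp, Pmp22, Prx, Mag, Cnp and S100b. Of these, 6 had at least 1 probe set assigned to that symbol alone, out of 18194 genes with such a probe set on the array. They were measured by 18 of the array's 45101 probe sets, and the brightest probe set of each gene, by its mean over the 20 arrays, stood for it. Prx, the gene of periaxin, is not analysed here.

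The study measured gene expression on Affymetrix arrays in normal-appearing mammary glands taken before any tumor, and asked how the glands of mice that later developed a mammary tumor differed from those that did not. All animals were FVB/N females heterozygous for the transgene of line 1372-1 TgN(Nrl-tgfalpha)29EPS, in which the NRL promoter drives transforming growth factor alpha in the mammary gland, so the placebo animals carried it as well. Subcutaneous implants placed at 8.5 weeks of age released 5 mg of tamoxifen or held carrier only. A single number 4 gland was removed at 20.5 to 21 weeks of age, 4 weeks after treatment ended, and the animal was watched for tumors up to 2 years of age. The 20 glands, 1 array per animal, fell into 4 groups: 7 placebo animals with a later tumor, 3 placebo animals without, 3 tamoxifen animals with a later tumor and 7 tamoxifen animals without. Outcome and treatment were therefore unevenly mixed, 7 of the 10 animals with a tumor being placebo animals and 7 of the 10 without being tamoxifen animals.

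Schwann cells wrap the axons of peripheral nerves, and the larger axons receive a sheath of compact myelin. Sox10 is the transcription factor that sets and keeps this lineage, and together with Egr2 it switches on myelin genes. Mbp and Pmp22 encode proteins of compact myelin, Mag and Cnp encode proteins of the uncompacted layers, and S100b encodes a calcium-binding protein long used to stain Schwann cells. Several of these genes are also active outside nerve: Sox10 in mammary epithelium and melanocytes, S100b in fat cells, Pmp22 in connective tissue, and Cnp and Mbp in blood cells. Nerve makes up a small part of a mammary gland, and in RNA from whole glands fewer cells of a type and less RNA per cell cannot be told apart.

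Promoter windows of the members, from 250 bases before to 50 after a RefSeq transcript start on build GRCm38.p6, are shown because Sox10 is itself a member and binds short motifs in myelin gene promoters. Described here are 10 windows for 5 of the 7 members: 4 for Pmp22, 3 for Mag and 1 each for S100b, Cnp and Prx. No window is described for Mbp and Sox10, which are only named. Capitals mark the letters ACAAAG or ACAATG, searched on both strands as letters that SOX factors favour. These windows are printed from 5′ to 3′ on the gene's own strand.
Cnp, chr11:100574689-100574988, plus strand: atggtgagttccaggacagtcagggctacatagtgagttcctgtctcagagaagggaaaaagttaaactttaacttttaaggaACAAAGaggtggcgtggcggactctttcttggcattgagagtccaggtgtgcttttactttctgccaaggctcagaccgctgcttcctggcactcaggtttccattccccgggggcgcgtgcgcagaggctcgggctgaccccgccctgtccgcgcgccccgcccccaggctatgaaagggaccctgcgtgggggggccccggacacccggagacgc
Mag, chr7:30914814-30915113, minus strand: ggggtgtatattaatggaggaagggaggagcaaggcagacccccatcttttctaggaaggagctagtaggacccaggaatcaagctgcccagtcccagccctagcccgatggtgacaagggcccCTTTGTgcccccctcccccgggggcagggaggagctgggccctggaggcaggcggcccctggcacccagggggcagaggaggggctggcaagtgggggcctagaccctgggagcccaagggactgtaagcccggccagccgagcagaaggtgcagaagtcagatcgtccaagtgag
Pmp22, most upstream start, chr11:63128732-63129031, plus strand: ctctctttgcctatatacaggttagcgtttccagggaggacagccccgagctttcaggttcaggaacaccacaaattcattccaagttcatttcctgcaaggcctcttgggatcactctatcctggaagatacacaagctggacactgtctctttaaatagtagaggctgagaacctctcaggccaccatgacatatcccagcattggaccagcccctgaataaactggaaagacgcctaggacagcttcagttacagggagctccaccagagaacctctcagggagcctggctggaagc
Pmp22, most downstream start, chr11:63132553-63132852, plus strand: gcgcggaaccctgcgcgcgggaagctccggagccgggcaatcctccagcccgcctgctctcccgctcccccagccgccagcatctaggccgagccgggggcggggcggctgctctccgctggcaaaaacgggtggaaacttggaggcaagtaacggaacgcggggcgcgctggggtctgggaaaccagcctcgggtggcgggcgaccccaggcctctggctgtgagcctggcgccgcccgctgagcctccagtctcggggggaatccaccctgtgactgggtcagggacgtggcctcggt
S100b, chr10:76253586-76253885, plus strand: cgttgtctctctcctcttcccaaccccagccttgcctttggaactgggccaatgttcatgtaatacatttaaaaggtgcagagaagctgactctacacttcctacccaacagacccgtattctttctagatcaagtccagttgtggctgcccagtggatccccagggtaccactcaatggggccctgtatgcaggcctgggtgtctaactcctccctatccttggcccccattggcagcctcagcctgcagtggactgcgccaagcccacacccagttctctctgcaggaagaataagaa

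The Cnp window held ACAAAG with its first letter 167 bases before the start, and the Mag window held the same letters on the opposite strand, read there as CTTTGT, 126 bases before it. Of the other Mag windows, 1 contains that same stretch, since the windows overlap. ACAAAG was present in 18.7% of all 32851 mouse promoter windows of this length, ACAATG in 12.6% and at least 1 of them in 28.6%. No window of Pmp22, S100b or Prx had either, which says only that these letters are not in those 300 bases. The letters GTGGGCG, the core that EGR factors favour, were searched in the same way. They were in 7.97% of all windows and in none of the members' windows described here. The Pmp22 starts lay in unlike sequence: the most upstream window had a G and C content of 50.7% and the most downstream one of 72.3%, against a median of 52.7% over all windows. By the same annotation Pmp22 spans 63128982 to 63159547 on chromosome 11, Cnp 100574909 to 100591875 on chromosome 11, Mag 30899175 to 30914922 on chromosome 7 and S100b 76253836 to 76261319 on chromosome 10. The most downstream Pmp22 window lies inside the span of Pmp22. The array has 1 probe set for Pmp22, so use of its starts could not be compared.

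The deposited values were on a log2 scale, with array medians between 6.82 and 6.89 and correlations between arrays of 0.977 to 0.997. The filter on low values kept a gene that was above 6.85 on 3 or more arrays, 6.85 being the median of the whole table. This left 12499 genes, including all 6 measured members, and a gene was called where the adjusted p of limma's moderated test (Benjamini-Hochberg over these genes) was under 0.05. Along the first principal component, which held 28.7% of the variance, placebo animals 8, 7 and 9 stood apart at -63.59, -45.33 and -18.15, all 3 with a later tumor, with the next animal at -8.79. The calls of members by their main probe sets, and many other results, are given with and without these 3 animals.

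No member was called between glands of animals with and without a later tumor, and none between tamoxifen and placebo glands. In limma's test, 0 of 6 members passed in the outcome comparison, where 0.232% of all genes were called, and 0 of 6 passed in the treatment comparison, where 0.008% were. At an unadjusted p under 0.05, Sox10, S100b and Mbp passed in the outcome comparison (3 of 6, against 16.5% of all genes) and Sox10, S100b and Cnp in the treatment comparison (3 of 6, against 13.9%). Between the tamoxifen animals without a tumor and the placebo animals with one, Sox10 fell and S100b rose, so 2 of 6 members were called where 4.63% of all genes were. At an unadjusted p under 0.05 that comparison had 3 of 6 members, with Cnp added, and 20.4% of all genes. The members did not move in 1 direction in that comparison: the median of their differences was 0.20, against 0.01 over all genes tested, and Sox10 was lower while the other 5 were higher.

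**Figure D1:**
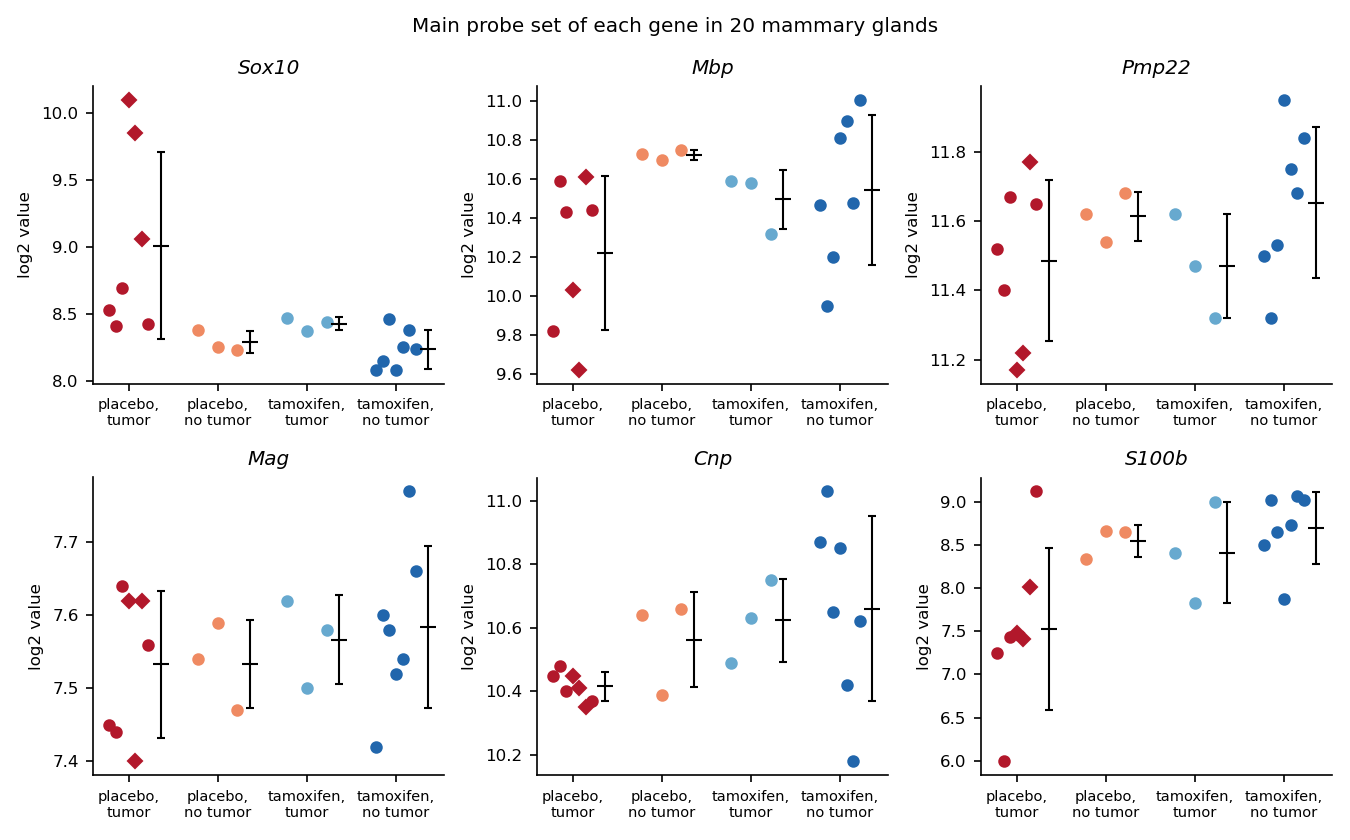
Log2 value of the main probe set of each measured gene in the 20 glands, by group; each point is 1 animal, diamonds are placebo animals 7, 8 and 9, and the black bar gives the group mean and SD. Sox10 stood highest in those 3 animals, at 9.06 to 10.10, and S100b was lowest in placebo animal 2, at 5.99.

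Sox10, the lineage factor, was measured by probe set 1451689_a_at. In the 7 placebo glands with a later tumor its log2 values were lowest at 8.41, had a median of 8.69 and reached 10.10. The 3 placebo glands without a tumor had 8.23, 8.25 and 8.38. In other words, all 7 placebo glands with a later tumor were above all 3 without, and the high end came from placebo animals 7 (10.10), 8 (9.85) and 9 (9.06).
The 3 tamoxifen glands with a later tumor had 8.37, 8.44 and 8.47, and the 7 without ranged from 8.08 through a median of 8.24 to 8.46. These tamoxifen groups overlapped, and no tamoxifen gland exceeded 8.47. The 17 glands other than placebo animals 7, 8 and 9 lay between 8.08 and 8.69.

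The mean log2 value of Sox10 was 8.83 ± 0.64 in glands of animals with a tumor and 8.25 ± 0.13 in the others (SD, n = 10 each). This difference of 0.58 ± 0.19 (SE), or 1.5-fold, did not pass limma's test over all genes (adjusted p = 0.146). All 10 glands with a tumor were above the median of those without. Without placebo animals 7, 8 and 9 the difference was 0.22 (adjusted p = 0.189). Within placebo animals it was 0.72 ± 0.28 (limma, adjusted p = 0.265), and without those 3 it was 0.22. Within tamoxifen animals it was 0.19 ± 0.28 (limma, adjusted p = 1). The mean of the tamoxifen glands was lower than that of the placebo glands, 8.29 ± 0.15 against 8.79 ± 0.67 (SD, n = 10 each), a difference of -0.50 ± 0.20 (SE) that did not pass (limma, adjusted p = 0.273) and was -0.12 without the 3 animals.

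In the tamoxifen glands without a tumor Sox10 fell by 0.77 ± 0.22 (SE) on the log2 scale, or 1.71-fold, relative to the placebo glands with one, from a mean of 9.01 ± 0.70 to 8.24 ± 0.15 (SD, n = 7 each; limma, adjusted p = 0.0475). None of the 7 tamoxifen glands was above the placebo median, and the ranges overlapped between 8.41 and 8.46. The call was lost without placebo animals 7, 8 and 9, where the difference was -0.28 (limma, adjusted p = 0.107). Leaving out 1 animal at a time, the call was kept in 5 of 20 fits (without placebo animal 1, 2, 4 or 10, or tamoxifen animal 8) and the difference ran from -0.87 to -0.59, the smallest being without placebo animal 7. The other probe sets of Sox10, 1424985_a_at and 1425369_a_at, correlated with the main one at 0.99 across the 20 glands. They differed in this comparison by -0.41 and -0.65, and in a fit of all 45037 probe sets no Sox10 probe set was called (adjusted p = 0.0705 to 0.094).

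Mbp encodes myelin basic protein, which holds the inner faces of the myelin membrane together, and it was measured by 8 probe sets, the main one being 1433532_a_at. Its log2 values in the 3 placebo glands without a tumor were close together, at 10.70, 10.73 and 10.75. In the 7 placebo glands with a tumor they ran from 9.62 through a median of 10.43 to 10.61. Every placebo gland with a later tumor was thus below every one without.
The 3 tamoxifen glands with a tumor had 10.32, 10.58 and 10.59. The 7 without had the widest spread, from 9.95 through 10.48 to 11.01, and covered the values of nearly all other glands. The lowest glands of all were placebo animals 8 (9.62) and 1 (9.82), tamoxifen animal 4 (9.95) and placebo animal 7 (10.03).

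Over all animals the mean log2 value of Mbp was 10.30 ± 0.36 in glands of animals with a tumor and 10.60 ± 0.33 in the others (SD, n = 10 each). This difference of -0.30 ± 0.14 (SE) did not pass (limma, adjusted p = 0.303). None of the 10 glands with a tumor exceeded the median of those without. Without placebo animals 7, 8 and 9 the outcome difference was -0.21 (limma, adjusted p = 0.715). Within placebo animals the difference was -0.51 ± 0.22 (limma, adjusted p = 0.307), and it was -0.41 without placebo animals 7, 8 and 9. By their main probe sets, Mbp and Sox10 had placebo outcome groups that did not overlap, 2 of 6 members. Of all genes tested, 4.66% had the same, and only 0.008% of genes were called in that comparison. The groups did overlap in Sox10 probe set 1424985_a_at and in Mbp probe sets 1419646_a_at, 1451961_a_at and 1425263_a_at. In the remaining probe sets of both genes they did not. Within tamoxifen animals the difference was -0.05 ± 0.22 (limma, adjusted p = 1). Tamoxifen and placebo glands differed by 0.16 ± 0.15 (limma, adjusted p = 0.676), and by 0.04 without placebo animals 7, 8 and 9 (limma, adjusted p = 0.961).

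The 8 Mbp probe sets split into a group of 6 and a pair. The main one and 5 others, 6 in all, tracked each other across the glands with pairwise correlations of 0.92 to 0.99. Probe set 1425264_s_at correlated with those at 0.29 to 0.49 and 1425263_a_at at 0.08 to 0.21, and with each other these last were at 0.43. Their spread was smaller as well: the SD over 20 glands was 0.17 and 0.13, against 0.37 for the main probe set.
In the fit of every probe set, 1425264_s_at was higher in tamoxifen glands without a tumor than in placebo glands with one, at 9.58 against 9.30, a difference of 0.28 ± 0.06 (SE; limma, adjusted p = 0.032; 7 of 7 above the placebo median). In that fit 1.82% of all probe sets were called, and 1425264_s_at was the only member probe set among them. The main Mbp probe set had 0.33 ± 0.17 there (limma, adjusted p = 0.379). For 1425264_s_at no fit without placebo animals 7, 8 and 9 is given here, and its lowest value was in placebo animal 8. The Mbp locus is known to give rise to Golli transcripts as well as the classic myelin ones; which transcripts each probe set reads was not tested.

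**Figure D2:**
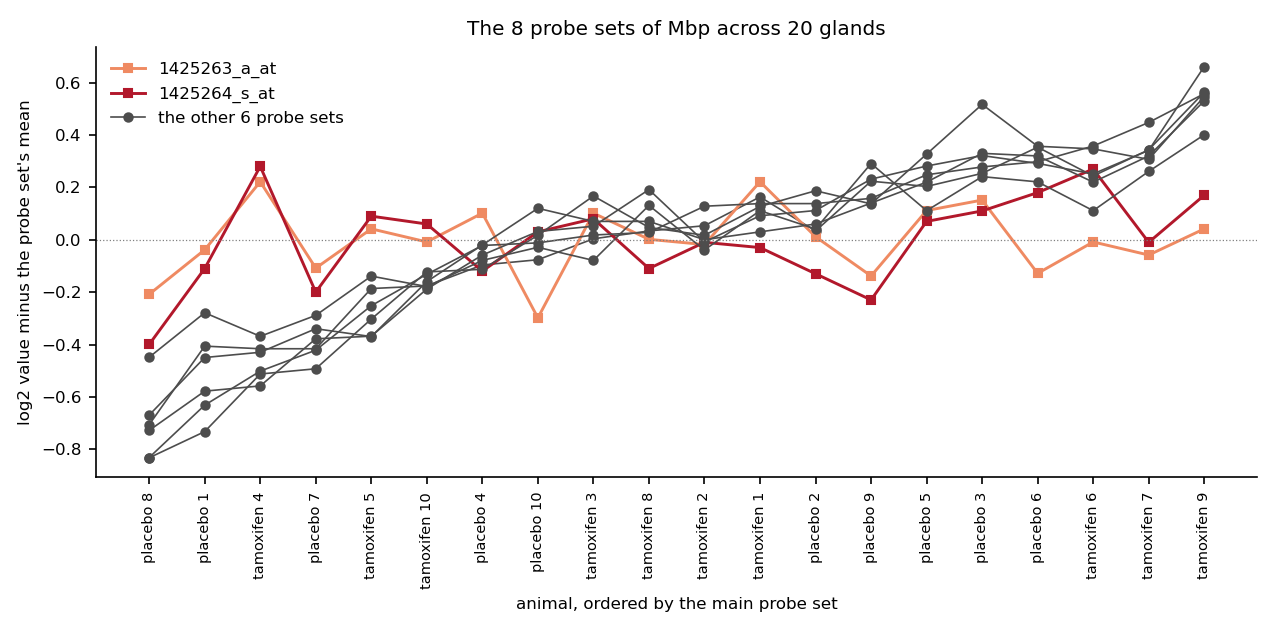
Log2 value of each of the 8 Mbp probe sets minus that probe set's mean over the 20 glands; glands are ordered from left to right by the main probe set. The 6 grey lines rise together from placebo animal 8 to tamoxifen animal 9, and the 2 coloured probe sets, with correlations of 0.08 to 0.49 to them, do not follow.

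Pmp22, the gene of a membrane protein of compact myelin that is also made by many other cells, was measured by 1417133_at alone. Its log2 values ranged from 11.17 through 11.52 to 11.77 in placebo glands with a tumor. They were 11.54, 11.62 and 11.68 in placebo glands without, and 11.32, 11.47 and 11.62 in tamoxifen glands with a tumor. In the 7 tamoxifen glands without one they ran from 11.32 through 11.68 to 11.95. All 4 groups overlapped, with placebo animals 7 and 8 lowest and tamoxifen animal 6 highest.
The outcome difference was -0.16 ± 0.08 (SE; limma, adjusted p = 0.336; 2 of 10 glands with a tumor above the median of those without). Its 95% interval, -0.33 to 0.01 on the log2 scale, includes 0. The treatment difference was 0.07 ± 0.09 (limma, adjusted p = 0.739).

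Mag encodes an adhesion protein of the layer next to the axon. It had 1 probe set, 1460219_at, and it was the member that varied least: the 20 glands lay between 7.40 and 7.77, with an SD of 0.09. Group means were 7.53 ± 0.10 and 7.53 ± 0.06 in placebo glands with and without a tumor (n = 7 and 3), and 7.57 ± 0.06 and 7.59 ± 0.11 in tamoxifen glands with and without (SD, n = 3 and 7). All 4 groups overlapped, and the highest value was in tamoxifen animal 8, without a tumor. The outcome difference had a 95% interval of -0.12 to 0.07 and the treatment difference one of -0.04 to 0.14, both on the log2 scale.

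Cnp, the gene of an enzyme-like protein that keeps channels open in the myelin sheath, was measured by 3 probe sets, with 1437341_x_at as the main one. The 7 placebo glands with a tumor were tightly grouped, from 10.35 through 10.41 to 10.48. The 3 placebo glands without had 10.39, 10.64 and 10.66. The 3 tamoxifen glands with a tumor had 10.49, 10.63 and 10.75, all above every placebo gland with a tumor.
The 7 tamoxifen glands without a tumor spread from 10.18 through 10.65 to 11.03, with tamoxifen animals 4, 3 and 6 highest (11.03, 10.87 and 10.85) and animal 8 lowest. By the main probe sets, Cnp was the only 1 of the 6 members whose treatment groups did not overlap among animals with a tumor. Of all genes tested, 3.53% had that property, and the Cnp difference of 0.21 ± 0.13 did not pass (limma, adjusted p = 0.729). In that comparison 0 genes of 12499, 0%, were called. The treatment difference over all animals was 0.19 ± 0.08 (SE; limma, adjusted p = 0.31; 8 of 10 tamoxifen glands above the placebo median) and the outcome difference -0.15 ± 0.08 (limma, adjusted p = 0.374). The other Cnp probe sets, 1418980_a_at and 1449296_a_at, correlated with the main one at 0.88 and 0.90, with treatment differences of 0.19 and 0.15. In both, the treatment groups overlapped among animals with a tumor. The lowest tamoxifen values there were 9.03 and 8.81, and the highest placebo values 9.19 and 8.98.

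S100b, the calcium-binding marker protein, had the largest outcome and treatment differences of the 6 members over all animals. With probe set 1434342_at, the 7 placebo glands with a later tumor ran from 5.99 through 7.43 to 9.13, the widest range of any member in any group. The 3 placebo glands without a tumor had 8.34, 8.65 and 8.67. The 3 tamoxifen glands with a tumor had 7.83, 8.41 and 9.0. Most placebo glands with a tumor were thus below the rest, with placebo animal 2 lowest and placebo animal 10, of the same group, highest of all 20.
The 7 tamoxifen glands without a tumor ran from 7.88 through 8.74 to 9.07. Over all animals the mean was 7.79 ± 0.92 with a tumor and 8.66 ± 0.36 without (SD, n = 10 each), a difference of -0.86 ± 0.29 (SE), or 1.82-fold, that did not pass (limma, adjusted p = 0.15). Tamoxifen glands had a mean of 8.62 ± 0.46 against 7.84 ± 0.91 in placebo glands, a difference of 0.78 ± 0.30 (limma, adjusted p = 0.255), with 10 of 10 tamoxifen glands above the placebo median. Without placebo animals 7, 8 and 9 the outcome difference was -0.79 (limma, adjusted p = 0.509). The treatment difference was then 0.69 (limma, adjusted p = 0.518).

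In tamoxifen glands without a tumor S100b rose by 1.17 ± 0.33 (SE) on the log2 scale, or 2.25-fold, relative to placebo glands with one, from a mean of 7.53 ± 0.94 to 8.70 ± 0.42 (SD, n = 7 each; limma, adjusted p = 0.0465). All 7 tamoxifen glands were above the placebo median, but placebo animal 10 was above all 7 of them. Without placebo animals 7, 8 and 9 the difference was 1.25 and was no longer called (limma, adjusted p = 0.181). With 1 animal left out at a time, the call was kept in 2 of 20 fits: without placebo animal 10, where the difference was 1.44 (limma, adjusted p = 0.00533), and without tamoxifen animal 6, where it was 1.31 (limma, adjusted p = 0.0407). The difference ran from 0.91 to 1.44 over these fits, the smallest being without placebo animal 2. The other S100b probe set, 1419383_at, correlated with the main one at 0.97 and differed by 0.73 ± 0.20 (limma over every probe set, adjusted p = 0.0618).

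**Figure D3:**
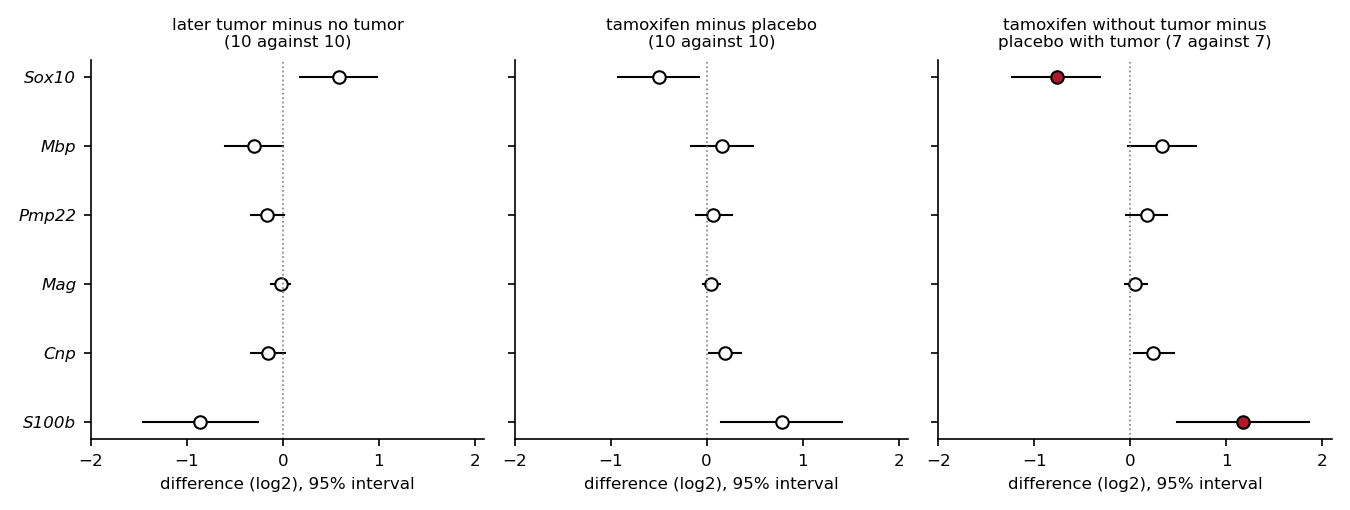
Difference in log2 value for each measured gene in 3 comparisons, with its 95% interval; filled red points have an adjusted p under 0.05 over all 12499 genes. Only the right panel has filled points, Sox10 at -0.77 and S100b at 1.17, and in all 3 panels these genes lie on opposite sides of 0.

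The remaining comparisons of the 4 groups called no member. Within placebo animals 0 of 6 passed in limma's test, and 3 of 6 members and 14.1% of all genes had an unadjusted p under 0.05. Within tamoxifen animals 0 of 6 passed where 0.008% of genes did, and 0 of 6 members and 2.1% of all genes were at that p. Between treatments, 0 of 6 passed among animals without a tumor, where 0.064% of genes were called (at that p, 0 of 6 members and 5.26% of genes). Among animals with a tumor 0 of 6 passed (at that p, S100b alone, 1 of 6, and 7% of genes). The test of whether the outcome difference itself differed between treatments called 0 of 6 members and 0% of all genes (at that p, 0 of 6 members and 4.52% of genes). For S100b, the member with the largest such contrast, it was 0.74 with a 95% interval of -0.51 to 1.99.

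Across the 20 glands the 6 members did not vary as 1 group. Of their 15 pairs, by the main probe sets, only Mbp and Pmp22 were related after adjustment over the 15: Pearson's r was 0.75 (permutation p = 0.00013, adjusted 0.00195) and Spearman's rho 0.74 (permutation p = 0.00033, adjusted 0.00495). Without placebo animals 1 and 8, farthest from the median of Mbp, r was 0.77, without placebo animals 7, 8 and 9 it was 0.65, and within the 4 groups it was 0.77. Sox10 ran opposite to Mbp, with r = -0.58 (permutation p = 0.01, adjusted 0.0583) and rho = -0.54 (permutation p = 0.0153, adjusted 0.0767), a relation that missed the threshold and was -0.35 without the 3 animals. For Sox10 and Pmp22, r was -0.55 over all glands and 0.06 without placebo animals 7 and 8. Cnp and Mbp had r = -0.01.

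The members were then set beside marker lists of other cell types in the gland, each list as the mean of its genes' values after centring each gene on its mean. With the 2 nerve lists described further on, this gave 72 relations, and 10 had an adjusted p of r under 0.05, 9 of them for rho too. Each of Sox10, Cnp and Pmp22 had its strongest relation with a different cell type's list.

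Sox10 went with the epithelial lists. With the luminal epithelium list (Epcam, Krt8, Krt18, Krt19, Cldn3, Cldn4 and Cdh1) r was 0.84 and rho 0.83 (both permutation p = 1e-05, the smallest that 100000 permutations can give; adjusted 0.00024 and 0.00036). Without placebo animals 7 and 8, r was 0.74, among the 17 glands without placebo animals 7, 8 and 9 it was 0.68, and within groups it was 0.70. Those 3 animals had the highest list values, 1.18, 1.23 and 0.70 above the mean of all glands, and the highest Sox10. With the basal epithelium list, which holds Krt14, Krt5 and Acta2, r was 0.83 (permutation p = 0.00011, adjusted 0.00158) and rho 0.68 (permutation p = 0.00157, adjusted 0.0161), and r fell to 0.46 without placebo animals 7 and 8.
The mean level of the luminal list lay between 9.86 and 11.04 in placebo glands with a tumor, 8.78 and 9.78 in placebo glands without, 9.58 and 9.96 in tamoxifen glands with one and 8.95 and 10.06 in tamoxifen glands without. In the comparison where Sox10 was called, 6 of the 7 luminal genes were called lower, against 4.63% of all genes in either direction. Their median difference was -1.01. Without placebo animals 7, 8 and 9, 1 of 7 was called. With the luminal list mean as a covariate, the outcome difference of Sox10 was -0.03 (limma, adjusted p = 0.998) in place of 0.58, and its treatment difference -0.09 in place of -0.50. The basal list had 0 of 5 genes called there, with a median difference of -0.51. The shrinkage with the luminal covariate was not particular to Sox10: 0 genes of all tested were then called by outcome or by treatment. The outcome difference of Mbp went from -0.30 to -0.09 with it. All 7 luminal genes were themselves higher with a later tumor, so this fit cannot separate the list from outcome. The part of epithelial content in the Sox10 result was not tested.
Sox10 was also related to the milk list (r = 0.71, permutation p = 0.00055, adjusted 0.0066; rho = 0.75, permutation p = 0.00022, adjusted 0.00317), with r = 0.64 without placebo animals 7 and 9 and 0.36 within groups. It ran opposite to the lymphocyte list, with r = -0.65 (permutation p = 0.00171, adjusted 0.0176) and rho = -0.69 (permutation p = 0.00145, adjusted 0.0161). Without tamoxifen animals 3 and 4 r was -0.65, without placebo animals 7, 8 and 9 it was -0.56, and within groups -0.39. With the white adipocyte list r was -0.59 (permutation p = 0.00649, adjusted 0.0467), but rho was -0.34 (permutation p = 0.146, adjusted 0.329) and r was -0.33 without placebo animals 6 and 7, so that relation rests on those animals. The melanocyte list, the other source named above, had r = -0.17 with Sox10 (permutation p = 0.481, adjusted 0.667) and rho = 0.21 (permutation p = 0.369, adjusted 0.568), and r was 0.50 without placebo animals 7, 8 and 9. Of its 4 genes, Mlana and Tyrp1 did not pass the filter.

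Cnp went with the lymphocyte list (Cd3e, Cd79a, Ms4a1, Ptprc and Ccr7): r was 0.90 and rho 0.84 (both permutation p = 1e-05; adjusted 0.00024 and 0.00036). Without tamoxifen animals 3 and 4 r was 0.83, without placebo animals 7, 8 and 9 it was 0.93, and within groups 0.87. Tamoxifen animal 4 had the highest value of both the list and Cnp, and tamoxifen animal 8, lowest in Cnp, was among the low glands of the list. The list's mean level was 9.91 to 10.35 in placebo glands with a tumor, 10.41 to 10.75 in placebo glands without, 10.39 to 10.77 in tamoxifen glands with one and 10.13 to 11.25 in tamoxifen glands without. All 5 lymphocyte genes were above the filter. In tamoxifen glands without a tumor, 2 of 5 were called higher than in placebo glands with one, where 4.63% of all genes were called. Without placebo animals 7, 8 and 9, 0 of 5 lymphocyte genes were called. Their part in the differences of Cnp was not tested.

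Pmp22 went with the white adipocyte list (Adipoq, Lep, Fabp4, Cidec, Retn, Lipe, Pnpla2 and Plin4), with r = 0.83 (permutation p = 3e-05, adjusted 0.00054) and rho = 0.83 (permutation p = 2e-05, adjusted 0.00048). Without placebo animals 6 and 7 r was 0.81, without placebo animals 7, 8 and 9 it was 0.73, and within groups 0.83. Mbp had a weaker relation with the same list, r = 0.61 (permutation p = 0.00459, adjusted 0.0367) and rho = 0.64 (permutation p = 0.00279, adjusted 0.0251), which was 0.45 without placebo animals 7, 8 and 9. None of the 8 adipocyte genes was called in any comparison of Sox10 or S100b above. S100b had no relation with any of these lists that passed. With the adipocyte list r was 0.46 (permutation p = 0.0402, adjusted 0.145) and rho 0.36 (permutation p = 0.121). With the luminal list r was -0.48 (permutation p = 0.0313, adjusted 0.133), and 0.04 within groups. With the list of Schwann lineage genes described further on r was -0.51 (permutation p = 0.0199, adjusted 0.0957), and 0.19 within groups. Of the skeletal muscle list, 5 of 6 genes were called higher where S100b was, against 4.63% of all genes in either direction. Without placebo animals 7, 8 and 9, 1 of 6 was. With this list the r of S100b was 0.36 (permutation p = 0.116) and rho 0.35 (permutation p = 0.129). The muscle list's mean level was 5.93 to 8.91 in placebo glands with a tumor and 7.87 to 12.31 in tamoxifen glands without. With its mean as a covariate the outcome and treatment differences of S100b were -0.75 and 0.73, in place of -0.86 and 0.78. With the luminal list mean as a covariate they were -0.63 and 0.53 (limma, adjusted p = 0.991 and 0.998).

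**Figure D4:**
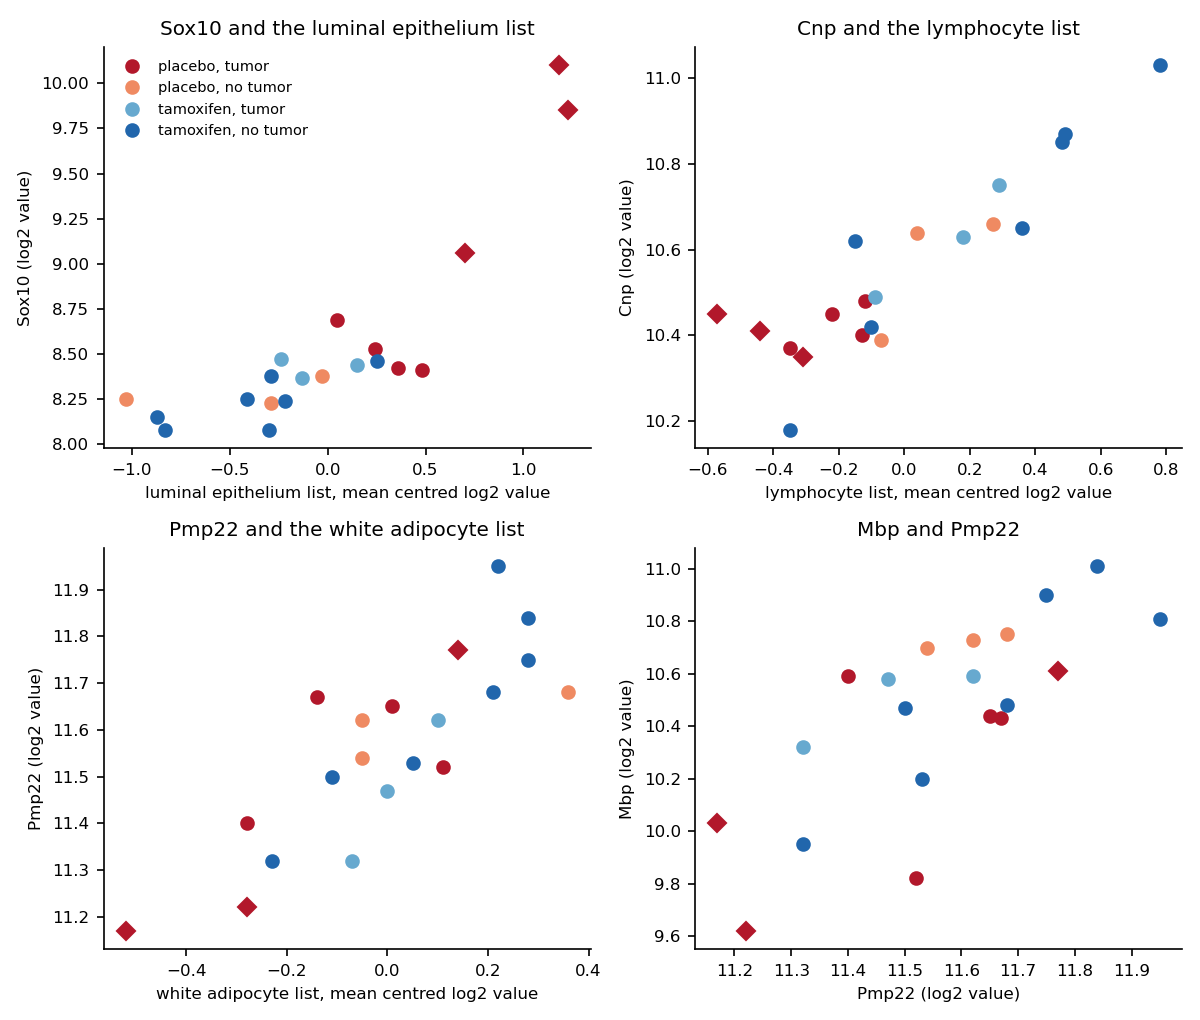
Each point is 1 of the 20 glands, coloured by group, with placebo animals 7, 8 and 9 as diamonds; the first 3 panels set a gene's log2 value against the mean centred log2 value of a cell type list, and the last sets Mbp against Pmp22. Pearson's r is 0.84 for Sox10, 0.90 for Cnp, 0.83 for Pmp22 and 0.75 for Mbp with Pmp22.

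The genes whose values were most like each member's over the 20 arrays, among the 12498 other genes tested, were as unlike as the members themselves. For Sox10 they were Plpp2 (r = 0.99), Arhgap8 (0.98) and Prss8 (0.98), the last an epithelial surface protease, and the lowest was Crebl2 (-0.96). For Cnp they were Smap2 (0.95), Lcp1 (0.94), an actin-bundling protein of white blood cells, and Gpsm3 (0.94), with Acaa1a lowest (-0.83). For S100b they were Ldhb (0.91), Cpn2 (0.91) and Plin5 (0.90), which coats lipid droplets, with Cldn10 lowest (-0.88).
For Mbp they were Tbc1d17 (0.89), Utrn (0.84), the gene of utrophin, and Pdzd2 (0.81), and the lowest was Qtrt1 (-0.79). For Pmp22 they were Stx2 (0.91), Itga7 (0.87), an integrin that binds laminin, and Epb41l2 (0.87), with Phc2 lowest (-0.80). For Mag they were Atxn7l2 (0.86), Habp2 (0.83) and Dnase1l2 (0.83), with Nemf lowest (-0.83). No member was among the nearest genes of another. These likenesses are descriptions over arrays that share the same groups, and without placebo animals 7, 8 and 9 those of Sox10 were 0.86 to 0.93.

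The wider set of nerve genes was checked with 4 further lists. Of the 14 peripheral myelin genes, 11 had a probe set and 8 passed the filter; the others are not analysed here. None of the 8 was called in the outcome, the treatment or the tamoxifen against placebo tumor comparison, with median differences of 0.00, 0.00 and -0.01. The smallest unadjusted p of the list in the outcome comparison belonged to Pllp, plasmolipin, at 8.38 with a tumor and 8.53 without (difference -0.15 ± 0.06, SE; limma, adjusted p = 0.192). The mean of this list followed Mag (r = 0.64, permutation p = 0.00224, adjusted 0.0202; rho = 0.63, permutation p = 0.00382, adjusted 0.0297; r = 0.61 without placebo animals 1 and 9, farthest from the list's median). With Pmp22 its r was 0.54 (permutation p = 0.0142, adjusted 0.0786), which missed the threshold, and rho was 0.62 (permutation p = 0.00412, adjusted 0.0297), with r = 0.53 without the same animals.

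Of the 20 genes of the Schwann lineage and its signals, all had a probe set and 14 passed the filter. In tamoxifen glands without a tumor against placebo glands with one, 1 was called higher and 3 lower, where 4.63% of all genes were called. Egr2, the factor that drives myelination, fell by 1.13 ± 0.31 (SE; from 8.11 to 6.98; limma, adjusted p = 0.0426). Erbb3, the receptor through which Schwann cells receive neuregulin and which mammary epithelium also uses, fell by 0.73 ± 0.19 (from 9.24 to 8.51; limma, adjusted p = 0.0368). Adgrg6, an adhesion receptor needed for myelination, fell by 0.53 ± 0.08 (from 7.25 to 6.72; limma, adjusted p = 0.00165). L1cam, a cell adhesion molecule of nerves, rose by 0.25 ± 0.05 (from 8.07 to 8.32; limma, adjusted p = 0.012). The median difference of the 14 was -0.04, against 0.01 for all genes.
Without placebo animals 7, 8 and 9, a check added after the data were seen, Adgrg6 alone of the 14 was called, with a difference of -0.58 (limma, adjusted p = 0.00698); Egr2 had -0.78 (adjusted p = 0.181), Erbb3 -0.35 (adjusted p = 0.291) and L1cam 0.18 (adjusted p = 0.143). In the outcome and treatment comparisons 0 of 14 were called in limma's test. At an unadjusted p under 0.05 there were 6 and 5, against 16.5% and 13.9% of all genes. Adgrg6 came nearest, with a treatment difference of -0.41 ± 0.08 (adjusted p = 0.0554), and Egr2 had the smallest p in the outcome comparison, 0.95 ± 0.25 (adjusted p = 0.0925). The mean of the 20 lineage genes followed Sox10, with r = 0.76 (permutation p = 1e-05, adjusted 0.00024) and rho = 0.81 (permutation p = 7e-05, adjusted 0.00126). Without placebo animals 7 and 8 r was 0.73, without placebo animals 7, 8 and 9 it was 0.63, and within groups 0.50. This mean includes the lineage genes that did not pass the filter. With the luminal epithelium list Sox10 had r = 0.84, and 0.70 within groups.

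Other markers of Schwann cells and nerve were not called in the outcome comparison or did not pass the filter. Scn7a, a sodium channel gene of non-myelinating Schwann cells, had an outcome difference of 0.04 ± 0.13 (limma, adjusted p = 0.904). Ngfr, the low-affinity neurotrophin receptor, had an outcome difference of 0.33 ± 0.13 (limma, adjusted p = 0.212). Cdh19, Foxd3, Gap43 and Sox2 did not pass the filter. Of 7 axon genes 6 had a probe set and 2 passed the filter (Prph and Stmn2), the neurofilament genes Nefl, Nefm and Nefh not being among them. Of 6 oligodendrocyte genes 3 passed, Mog and Olig2 not being among them. None of these axon or oligodendrocyte genes was called in the 3 comparisons.

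**Figure D5:**
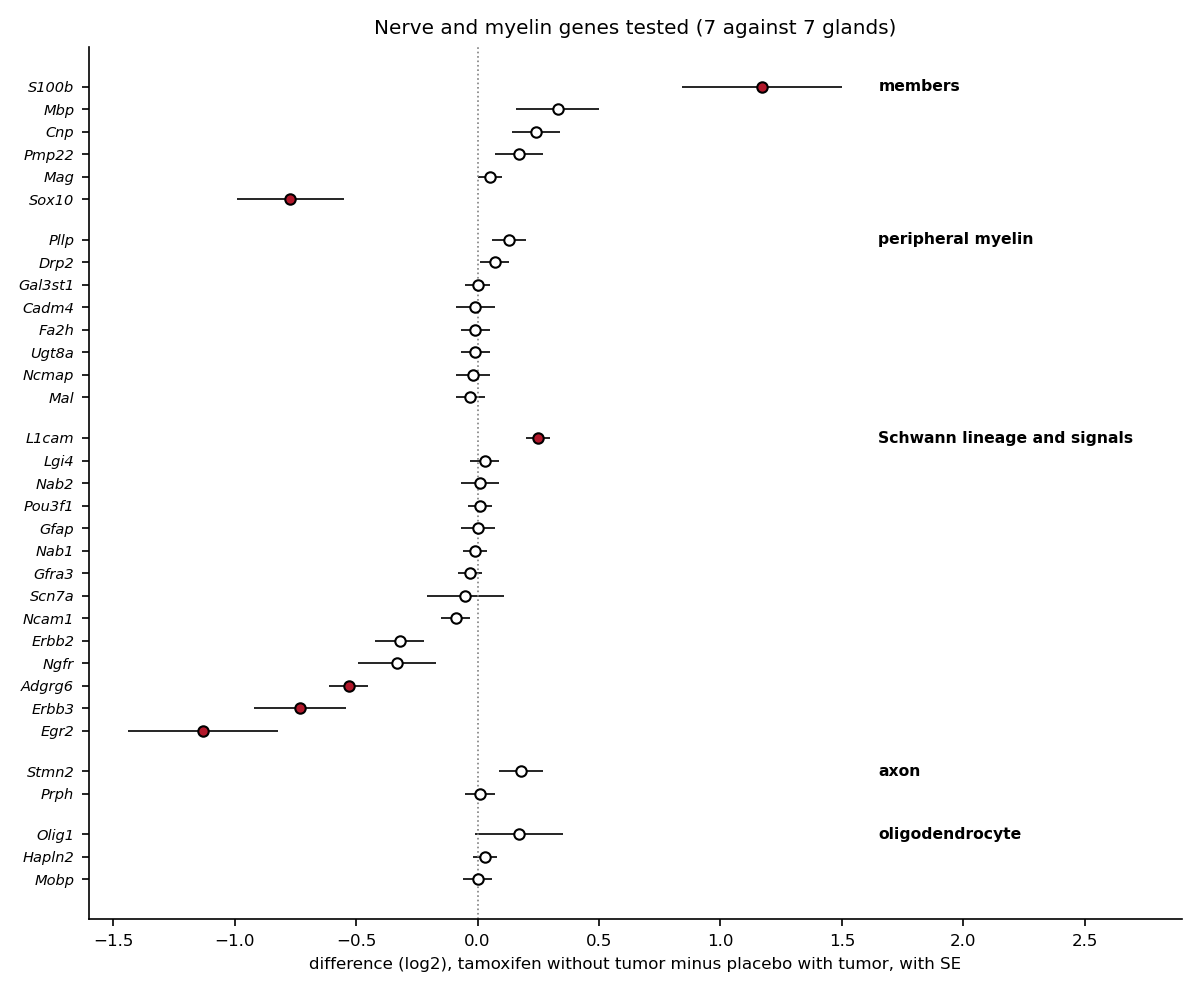
Difference in log2 value, with its SE, between tamoxifen glands without a tumor and placebo glands with one for each nerve and myelin gene tested; red points have an adjusted p under 0.05 over all genes. The 8 peripheral myelin genes lie near 0, and the called genes are Sox10, Egr2, Erbb3 and Adgrg6 on the left and S100b and L1cam on the right.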

How the data were processed

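RNA from 20 whole glands was hybridised to 1 Affymetrix array each. The values the authors deposited are log2 expression per probe set. The submitters' processing notes name RMA as the tool, and the sources used here do not give its version. RMA summarises probes into probe sets and forces a common distribution on the arrays. No pair of arrays was identical. Symbols came from GEO's platform table, updated by Entrez ID: 34958 of 45101 probe sets had 1 symbol (34754 matched), 932 several and 9211 none. Tests used limma 3.58.1 (R 4.3.3, lmFit and eBayes) with 10 against 10 animals, or group means of the 4 groups over all 20. Only the outcome test of 10 against 10 was checked on simulated data, drawn independently for each gene and array. The treatment and 4-group fits were not. Relations used 100000 permutations, with the nerve lists added to that family after the data were seen. The members and lists were chosen with earlier results of these data known. Named genes were the members, fixed nerve genes, any list gene called, the list gene with the smallest p, and the 3 most and 1 least alike genes by Pearson's r. Alternatives covered scaling, filter, probe set, variance model, array weights, covariates and animals left out. The labels do not say that arrays were run in separate batches. Samples were separate animals. Some genes of the nerve lists are not reported here.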

Additional observations from a re-analysis of the deposited data

How the results depend on the processing

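No member was called in the outcome or treatment comparison or within any treatment or outcome under any alternative run. In tamoxifen glands without a tumor against placebo glands with one, the count of 2 called members became 0 with no filter, with every probe set tested, with no moderation of the variances, with array weights and without placebo animals 7, 8 and 9, and 1 with the mean of a gene's probe sets; leaving out 1 animal gave 0 to 2. The Sox10 difference in that comparison was -0.52 with array weights and -0.28 without placebo animals 7, 8 and 9, in place of -0.77. For S100b it was 1.17 and 1.25, in place of 1.17. Why the calls were lost was not tested. Cnp was called there without tamoxifen animal 8 (0.32, adjusted p = 0.0234). Some signs turned. Sox10 by outcome was -0.03 with the luminal list as a covariate. That covariate also gave treatment differences of -0.03 for Mbp and -0.02 for Pmp22. Array weights gave 0.00 for Mag by outcome and -0.01 for Pmp22 by treatment. Within placebo animals Mag was -0.01 with median centring, with quantile normalization and without placebo animals 7, 8 and 9. Leaving out 1 animal, the outcome difference ranged within tamoxifen animals from -0.15 to 0.04 for Mbp, -0.58 to 0.01 for S100b, -0.04 to 0.02 for Mag and -0.12 to 0.03 for Cnp, and within placebo animals from -0.03 to 0.03 for Mag; the treatment difference of Pmp22 ranged from -0.09 to 0.06 with a tumor and -0.01 to 0.09 without; the interaction ranged from -0.13 to 0.02 for Pmp22 and -0.05 to 0.01 for Mag. Replicate numbers were not used as pairs in the main fits. Deviations of arrays with the same number correlated at -0.11 to 0.46 by treatment and -0.17 to 0.33 by outcome, each with 4 of 10 over 0.1. With the replicate block S100b had a treatment difference of 0.78 (limma, adjusted p = 0.136). The block called 235 genes by treatment and 35 by outcome in place of 1 and 29, and it called no member. What arrays of the same number may share was not tested further. For single members under settings that kept every replicate or left out placebo animals 7, 8 and 9 together, 521 values kept direction and side of the threshold, 11 lost the call and 8 changed sign. Leaving out 1 animal, the count of all genes called ran from 1 to 118 by outcome (118 without tamoxifen animal 1), 0 to 110 by treatment and 295 to 846 for tamoxifen without against placebo with a tumor; under the other settings it ran from 0 to 45 by outcome, 0 to 235 by treatment and 141 to 819 for the last, in place of 29, 1 and 579. The 819 came from testing every probe set and are probe sets, 1.82% of 45037, whereas the 579 are 4.63% of 12499 genes. The limits are the 20 arrays, groups of 3, outcome and treatment unevenly mixed, whole-gland RNA, and probe sets that cannot be compared in level with each other.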
